A study of Arabidopsis thaliana with 12 samples.

Results

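The comparison set the response of Arabidopsis leaves to progressive drought, at the first day of wilting, against their response to 1 day of controlled moderate drought. For every gene, the change between wilting leaves and their own well-watered control (the wilting effect) was reduced by the change between day 1 leaves and their own well-watered control (the day 1 effect). The result, called the difference below, is positive where the wilting effect was the more positive of the 2. It rests on 8 of the 12 arrays of the series and on 21461 probe sets, each of which stands for 1 Arabidopsis locus.

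All plants were of the Columbia ecotype and wild type as far as the labels say, were grown under 10 hours of light at 22 °C in peat pellets, and gave young leaves. In the moderate drought group (mDr Day01), watering stopped when plants were 30 days old from sowing, and pellets were held at 30% of field capacity. The sampling was on day 1, and the labels do not say whether that day counts from the last watering or from reaching 30%. In the progressive drought group (pDr), watering stopped 35 days after sowing and the pellets dried until the leaves first wilted. The labels do not give the number of days this took. Each drought group had a well-watered control (WW-ctrl for mDr Day01 and WW-ctrl for pDr), and each of the 4 groups had 2 replicate arrays made from 5 pooled plants. Kind of drought, its severity, plant age and array set changed together between the 2 effects, so their parts in any difference cannot be told apart.

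When a leaf loses water it accumulates the hormone abscisic acid (ABA). ABA binds PYR/PYL receptors, which inhibit clade A PP2C phosphatases and so free SnRK2 kinases to activate transcription factors of the ABF group and ion channels of the guard cells. The targets of this pathway include late embryogenesis abundant (LEA) proteins and lipid transfer proteins, which protect cells or seal surfaces, and the PP2C genes themselves, which damp the signal. Growth by cell expansion, which needs wall-loosening enzymes such as expansins and xyloglucan endotransglucosylase/hydrolases (XTHs), and photosynthesis are processes that drying leaves are known to slow.

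The 4 day 1 arrays and the 4 progressive drought arrays had different value distributions. The array medians lay at 5.59 to 5.63 on day 1 and at 4.65 to 4.70 in the progressive drought set, on the log2 scale of the deposited values, so levels are never compared across the sets. Replicates of the progressive drought set were further apart: the root-mean-square standard deviation (SD) of a probe set was 0.12 and 0.15 in the control and drought groups of day 1, and 0.31 and 0.37 in those of progressive drought. Well-watered control replicate 1 of the progressive drought set stood apart from replicate 2 in dehydration and jasmonate genes. The median level of 20 ABA- and dehydration-induced genes was 10.21 in replicate 1 and 7.34 in replicate 2, while both wilting arrays were just above 12. The median level of 14 JAZ repressors and jasmonate response genes was 9.26 and 4.99 in the same controls and 7.39 and 9.81 in the wilting arrays, and that of 11 jasmonate synthesis genes was 8.90 and 6.32 against 6.84 and 8.78. Markers of the labelled leaf tissue and of other organs are given as levels only, since levels of different probe sets cannot be compared and do not test the label. On this scale light-harvesting and photosystem genes had median levels of 12.05 to 13.00 over the 8 arrays, while root markers stayed at 4.01 to 4.54, seed storage genes at 3.52 to 3.70 and shoot apex and flower markers at 3.53 to 3.78. No member of these last 3 lists had a called difference (0 higher and 1 lower at an unadjusted p under 0.05, a root marker), but in pooled leaf RNA fewer cells of a type and less RNA per cell cannot be told apart.

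Most called differences belonged to genes with little change on day 1 and a large one at wilting. With a threshold of 0.05 on the adjusted p of the difference (limma, Benjamini-Hochberg over all probe sets), 747 probe sets (3.48%) were called higher and 1156 (5.39%) were called lower. Of the called differences, 504 higher and 882 lower ones reached 1 on the log2 scale, and 197 and 193 reached 2. The median probe set called higher had a day 1 effect of 0.09 and a wilting effect of 1.39, and the median one called lower had effects of -0.13 and -1.48. For 621 (83.1%) of the higher and 1049 (90.7%) of the lower calls, the day 1 effect was smaller than 0.5. Small day 1 effects were not particular to the calls. Over all probe sets the day 1 effect was -0.34 at the 5th percentile and 0.37 at the 95th, against -1.28 and 1.15 for the wilting effect. A further 116 higher and 83 lower calls had a day 1 effect of at least 0.5 in the same direction. Over all 21461 probe sets the median difference was -0.02, the SD of the effects was 0.25 on day 1 and 0.81 at wilting, and the 2 effects had a Pearson correlation of 0.51 (Spearman 0.35), given as a description across genes, which are not independent replicates.

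**Figure D1:**
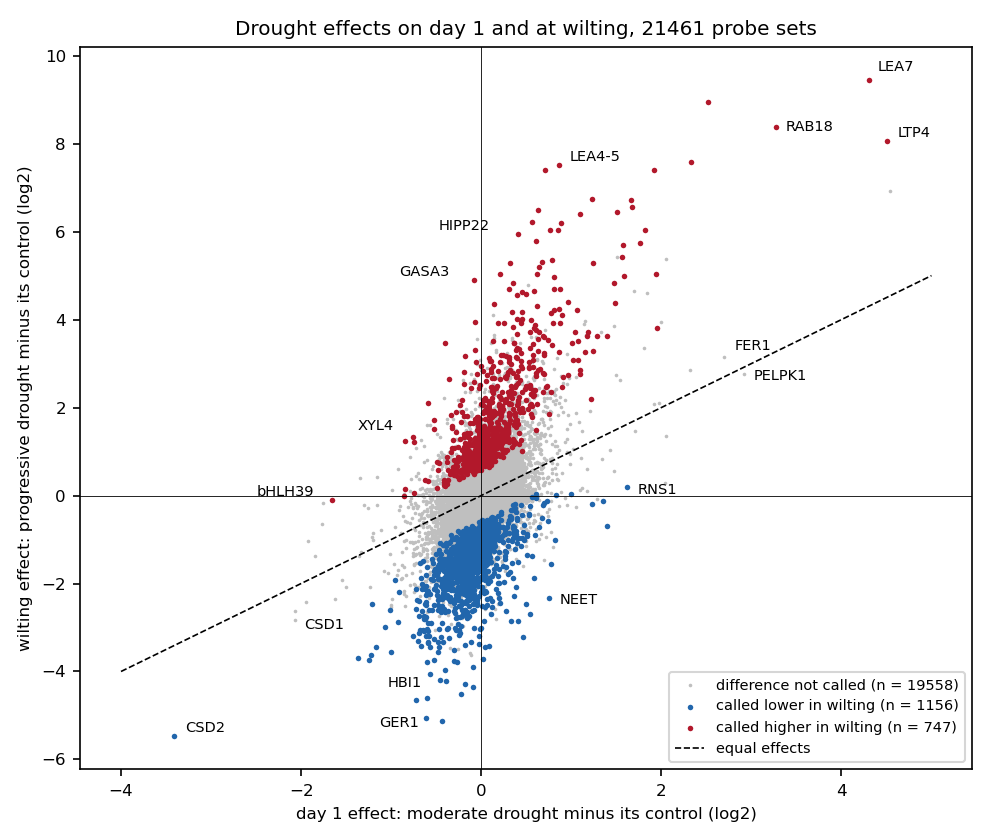
Each point is 1 of 21461 probe sets, with the day 1 effect on the x axis and the wilting effect on the y axis, both in log2 units of drought minus control. Red points are the 747 called higher, blue points the 1156 called lower, grey points were not called, and the dashed line marks equal effects. Most called points lie near the vertical axis, where the day 1 effect was close to 0, as it was for most of all probe sets.

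These counts depended on single arrays. In each fit the sets share 1 spread per probe set, so leaving out an array changes that spread as well as the effects. List medians were counted as moved if they changed sign or shifted by more than the median SE of their members. They moved in 2 or 3 lists without 1 day 1 array and in 9 to 19 without 1 progressive drought array. A lost call is thus not by itself a smaller difference. Fits without an array of the day 1 set called fewer: 154 higher and 336 lower without its control replicate 1, 82 and 137 without control replicate 2, 227 and 403 without drought replicate 1, and 114 and 192 without drought replicate 2. Without progressive drought control replicate 2 the counts were 455 and 806, and without drought replicates 1 and 2 of that set they were 1137 and 1480, and 1721 and 1751. The 208 probe sets that stayed called in all 8 such fits, 78 higher and 130 lower, had differences of at least 1.22 in size, and they include 31 of the 127 called genes named by rule. Of those genes, the ones described below are said to be called, or to hold, without any 1 array.

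Genes with a large effect on day 1 mostly had one of the same sign at wilting. Of the 78 probe sets with a day 1 effect of at least 1, 64 also had a wilting effect of at least 1, 5 had a wilting effect of the opposite sign, and their median wilting effect was 3.48. Of the 36 with a day 1 effect of -1 or below, 25 had a wilting effect of -1 or below, 2 had one of the opposite sign, and the median was -1.74. When the day 1 set was fitted by itself (4 arrays), 108 probe sets (0.503%) rose on day 1 while 79 (0.368%) fell, and 31 and 15 of these had a difference called in the same direction. In the limma fit of the 8 arrays, where both sets share 1 spread per probe set, 2 probe sets (0.00932%) rose and 0 fell on day 1 (855 and 775 at an unadjusted p under 0.05), while 2259 (10.5%) rose and 2737 (12.8%) fell at wilting. The progressive drought arrays fitted alone gave 589 rises (2.74%) and 986 falls (4.59%). Since replicates were further apart in progressive drought, the shared spread tends to be too wide for day 1 and too narrow for wilting. The day 1 and wilting counts of the fit of 8 arrays are therefore not on equal terms.

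Genes of dehydration protection were among the largest positive differences. LEA4-5 (AT5G06760), a LEA protein, had values of 4.12 and 4.19 in the day 1 control arrays, 5.21 and 4.83 in the day 1 drought arrays, 4.25 and 4.24 in the progressive drought controls and 12.08 and 11.46 in the wilting arrays. Control and drought arrays were separate in both sets, by a wide margin at wilting and a narrow one on day 1. The difference of 6.66 ± 0.31 (SE; 95% interval 5.91 to 7.41; adjusted p = 0.00209) corresponds to a 101-fold larger change at wilting, and it was called without any 1 array. RAB18 (AT5G66400), a dehydrin, had already moved strongly on day 1, from 5.73 and 5.92 to 9.62 and 8.57, and went from 5.47 and 5.39 to 14.02 and 13.59 at wilting. Its difference was 5.10 ± 0.47 (adjusted p = 0.00353), also called without any 1 array. LEA7 (AT1G52690) behaved alike in direction, with 3.72 and 3.91 against 9.09 and 7.16 on day 1 and 3.89 and 3.91 against 13.88 and 12.81 at wilting. Its day 1 drought arrays were far apart, and its difference of 5.14 ± 0.88 (adjusted p = 0.019) reached an adjusted p as high as 0.11 when 1 array was left out.

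Among the other large positive differences, some genes had small effects on day 1. HIPP22 (AT1G22990), which encodes a metal-binding isoprenylated protein, had 3.74 and 3.70 in control and 4.11 and 4.13 in drought on day 1, and 4.2 and 3.80 against 9.86 and 10.03 at wilting. GASA3 (AT4G09600), a small GASA peptide, had 3.08 and 2.98 against 2.96 and 2.95 on day 1 and 3.15 and 3.22 against 8.50 and 7.66 at wilting. Their differences were 5.54 ± 0.21 (adjusted p = 0.00164) for HIPP22 and 4.97 ± 0.35 (adjusted p = 0.00287) for GASA3, both called without any 1 array. In 8 of the 10 largest higher calls, HIPP22 and GASA3 among them, the wilting control mean lay below the median of its set, and the deposited values carry no detection call for such dim probe sets. TSPO (AT2G47770), an ABA-induced membrane protein, had a difference of 5.51 ± 0.67 (adjusted p = 0.00758) and SAG21 (AT4G02380), a LEA-family protein named for senescence, one of 5.18 ± 0.62 (adjusted p = 0.00742).

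**Figure D2:**
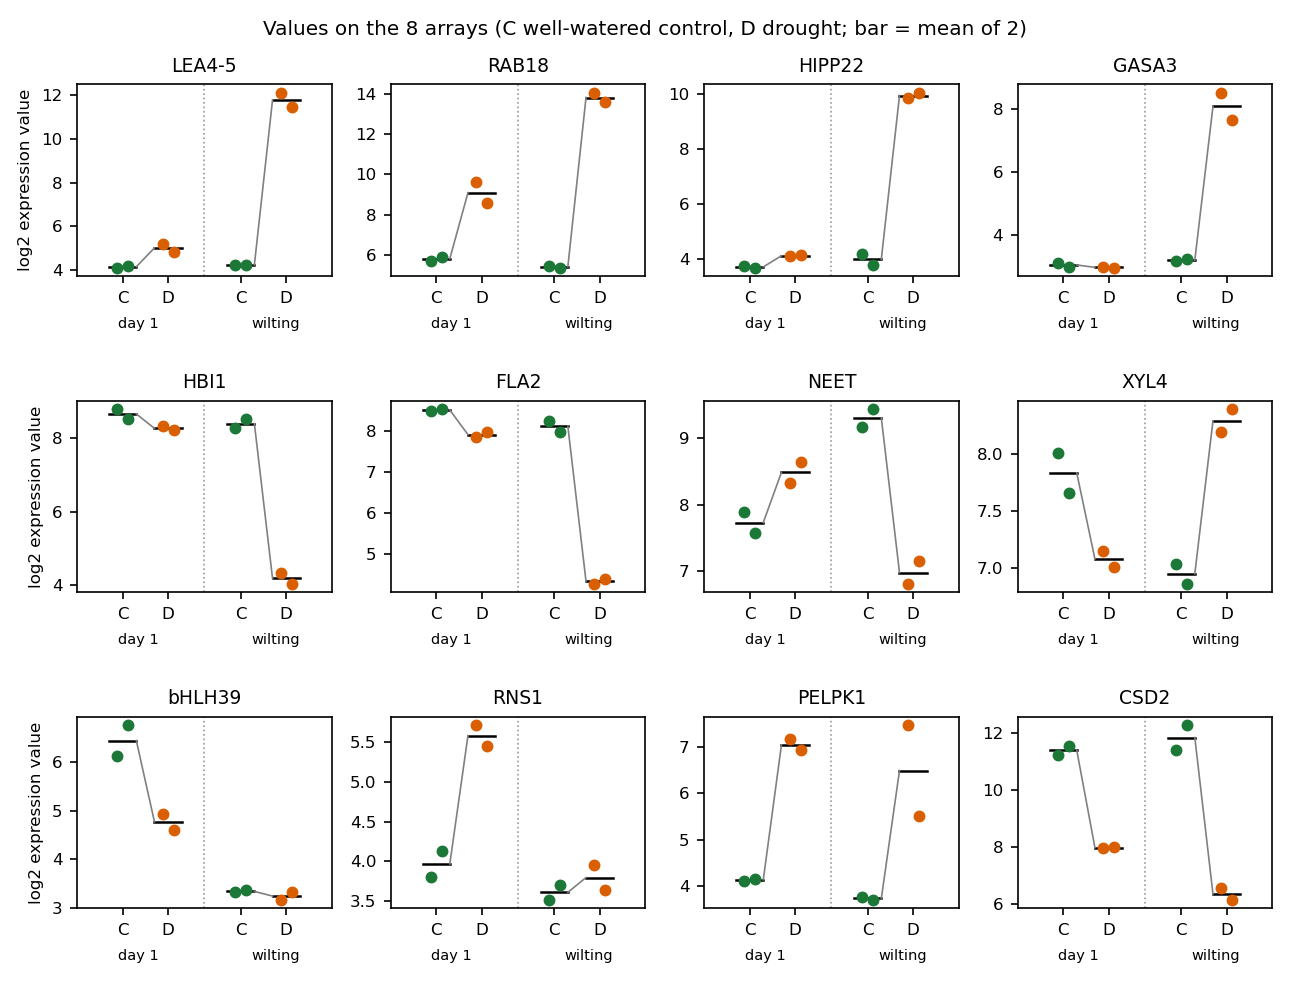
Deposited log2 values of 12 genes on the 8 arrays, with green points for the 2 control arrays and orange points for the 2 drought arrays of each set, black bars for the mean of 2 and grey lines joining the means within a set. LEA4-5, HIPP22 and GASA3 separate strongly only in the wilting set, NEET and XYL4 move in opposite directions in the 2 sets, and PELPK1 moves by similar amounts in both. The y axis differs between panels and does not start at 0.

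As a list, the 20 ABA- and dehydration-induced genes had 9 members called higher and 0 called lower, with a median difference of 2.3 from median effects of 0.72 on day 1 and 2.74 at wilting. The count was 16 without progressive drought control replicate 1, the array with high levels of these genes, and 4 without day 1 control replicate 2 (6 without day 1 drought replicate 2). The reporter gene LTI78 (RD29A, AT5G52310) shows that array: its controls were at 11.71 and 9.07 and its wilting arrays at 12.76 and 13.34, and the difference of 1.97 ± 1.11 (95% interval -0.71 to 4.64) was not called (adjusted p = 0.367). COR15A, a chloroplast-protecting cold-regulated protein, had controls at 12.42 and 10.12 and wilting arrays at 12.94 and 12.94, with a difference of 1.16 ± 0.92 (adjusted p = 0.536). RD20, a caleosin of lipid droplets, had a difference of 2.76 ± 0.90 (adjusted p = 0.126). LTI65 (RD29B, AT5G52300), the relative of RD29A, had low controls on both arrays, at 4.48 and 4.78, against 12.09 and 11.99 at wilting. On day 1 it had 4.68 and 4.87 in control and 7.41 and 5.98 in drought, and its difference was 5.49 ± 0.59 (adjusted p = 0.00567; highest adjusted p with 1 array left out, 0.053). ERD1, a regulatory subunit of the chloroplast Clp protease, had a day 1 effect of 0.19 and a wilting effect of 2.82, with a difference of 2.64 ± 0.25 (adjusted p = 0.00393) that was called without any 1 array. The 18 LEA proteins had 5 called higher and 0 lower and a median difference of 1.74. Their count was 9 with all 12 arrays, with array weights or with common quantile normalization, 10 without progressive drought control replicate 1 or wilting replicate 1, 9 without wilting replicate 2, and 3 and 2 without day 1 control replicates 1 and 2.

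Most negative regulators of ABA signalling had called positive differences, while its receptors and kinases mostly had no called difference. Of 9 clade A PP2C phosphatases, 6 were called higher and 0 lower, with a median difference of 2.76. HAI2 (AT1G07430) had 4.58 and 4.96 in control and 6.65 and 6.25 in drought on day 1, and 4.17 and 4.08 against 10.48 and 10.90 at wilting. ABI1 (AT4G26080) had 8.22 and 8.51 against 8.93 and 8.57 on day 1, where the groups barely separated, and 7.27 and 7.24 against 10.57 and 10.23 at wilting. The differences were 4.88 ± 0.30 (adjusted p = 0.00215) for HAI2, 3.42 ± 0.27 (adjusted p = 0.00328) for ABI2 and 2.76 ± 0.25 (adjusted p = 0.0036) for ABI1, all called without any 1 array, and 5.31 ± 0.59 (adjusted p = 0.00612) for HAI1. The list count was 3 without day 1 control replicate 2, and 4 without each of the other 3 day 1 arrays. Of 10 PYR/PYL receptors, PYL8 (symbol RCAR3) was the only call, a share of 10.0% against 5.39% of all probe sets called lower. Its values were 8.23 and 8.09 against 7.95 and 7.89 on day 1 and 6.89 and 6.81 against 5.46 and 5.56 at wilting (difference -1.10 ± 0.14, adjusted p = 0.00924). That call was lost without day 1 control replicate 2 or drought replicate 2, and the list median was -0.08. No difference was called among 10 SnRK2 kinases (2 higher and 1 lower at an unadjusted p under 0.05; median 0.37), including OST1, the kinase of guard cell closure, with effects of 0.15 on day 1 and 0.89 at wilting.

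In ABA metabolism, 2 enzymes of synthesis and 2 of breakdown were called higher, with day 1 effects from -0.04 for AAO3 to 0.59 for NCED3. NCED3 (AT3G14440), which makes the rate-limiting carotenoid cleavage, had 4.40 and 4.90 against 5.33 and 5.14 on day 1 and 4.46 and 3.90 against 8.25 and 7.72 at wilting. AAO3 (AT2G27150), the oxidase of the final step, had 5.40 and 5.54 against 5.45 and 5.41 on day 1, where the groups overlapped, and 4.71 and 4.80 against 7.84 and 7.20 at wilting. Their differences were 3.22 ± 0.39 (adjusted p = 0.00742) and 2.81 ± 0.29 (adjusted p = 0.00489), the latter called without any 1 array. The other 7 of 9 synthesis genes were not called, among them ABA1 at 0.67 and ABA2 at -0.90. The ABA hydroxylases CYP707A1 and CYP707A2 had differences of 1.68 ± 0.27 (adjusted p = 0.015) and 1.18 ± 0.15 (adjusted p = 0.00911), with day 1 effects of -0.03 and 0.24. Of the 6 breakdown and conjugation genes, these 2 were called higher and 0 lower, and neither was called without day 1 control replicate 2 or without day 1 drought replicate 2.

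In several drought-linked families of transcription factors a few members were called higher and most others were not called. HB-12 (AT3G61890) and HB-7 (AT2G46680), ABA-responsive homeodomain-leucine zipper factors, were the only 2 of 12 class I members called higher (16.7%, against 3.48% of all probe sets). HB-12 had 5.51 and 6.10 against 6.85 and 6.54 on day 1 and 4.15 and 4.82 against 11.04 and 10.32 at wilting, a difference of 5.31 ± 0.48 (adjusted p = 0.00348). HB-7 had a difference of 3.98 ± 0.35 (adjusted p = 0.00339), and both calls held without any 1 array, while the median of the 12 was 0.03. Of 10 stress and senescence NAC factors, 3 were called higher and 0 lower, with a median difference of 2.44. ORE1 (symbol NAC6, AT5G39610), a NAC factor of leaf senescence, had 4.21 and 4.19 against 4.96 and 4.23 on day 1 and 3.58 and 3.45 against 7.67 and 7.39 at wilting, a difference of 3.62 ± 0.34 (adjusted p = 0.00364) called without any 1 array. NAC032 reached 4.19 ± 0.46 (adjusted p = 0.00577) and ATAF1 2.88 ± 0.52 (adjusted p = 0.0228). The NAC count was 6 without progressive drought control replicate 1, 1 without day 1 control replicate 2 and 2 without any other day 1 array. Without progressive drought control replicate 2 the median was 1.11, with 2 called higher and 1 lower.

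The bZIP factors GBF3 and ABF3, which bind ABA response elements or the related G-box, had differences of 3.48 ± 0.36 (adjusted p = 0.00504) and 2.65 ± 0.33 (adjusted p = 0.0085), and the GBF3 call held without any 1 array. They were the 2 called of 7, and ABF4, not called, was at 2.06. The count was 4 with all 12 arrays, with array weights or without either wilting array, and 1 without day 1 drought replicate 2. Among 12 CBF/DREB and ZAT factors, DREB2A had a difference of 3.37 ± 0.63 (adjusted p = 0.0252), ZAT6 one of 3.05 ± 0.43 (adjusted p = 0.0112) and AZF2 (symbol ZF2) one of 2.44 ± 0.37 (adjusted p = 0.014). DREB26 was the 1 called lower (8.33% of the list, against 5.39% of all probe sets), at -1.56 ± 0.27 (adjusted p = 0.019). Its day 1 values were 4.08 and 4.24 against 4.07 and 4.15, and its values at wilting were 3.65 and 3.99 below controls at 5.66 and 5.20. None of the 4 was called without either day 1 control array or day 1 drought replicate 2, and 6 members were called higher without wilting replicate 1.

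Sugar metabolism genes divided between members. SUS1 and SUS3, sucrose synthases, had differences of 2.66 ± 0.33 (adjusted p = 0.00811) and 4.17 ± 0.65 (adjusted p = 0.0149). BAM1, a starch-degrading amylase of the chloroplast, had 7.32 and 7.33 against 7.82 and 7.61 on day 1 and 7.32 and 7.50 against 11.35 and 10.09 at wilting, with a difference of 2.92 ± 0.52 (adjusted p = 0.0218). SAG29 (SWEET15), a sugar exporter, had a difference of 4.37 ± 0.65 (adjusted p = 0.0128). These were the 4 called of 18 starch and sucrose genes, whose median was 0.08, and 0 were called without day 1 control replicate 2 or day 1 drought replicate 2. In the raffinose family, the alpha-galactosidase SIP2 had effects of -0.40 on day 1 and 3.48 at wilting, a difference of 3.88 ± 0.80 (adjusted p = 0.0341). The raffinose synthase RS5 (symbol SIP1 at AT5G40390) had a difference of 1.71 ± 0.31 (adjusted p = 0.0238), and DIN10, a dark-inducible relative, one of -2.32 ± 0.34 (adjusted p = 0.0121), from effects of -1.37 and -3.70. None of the 3 was called without either day 1 drought array. Of 7 measured proline genes, ALDH12A1, a dehydrogenase of proline breakdown, was the only call (14.3%, against 3.48% of all probe sets called higher), at 1.00 ± 0.20 (adjusted p = 0.0296). The call was lost under the variance trend. The proline genes P5CS1 and P5CS2 were not measured.

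Regulators of growth were among the genes with large negative differences. HBI1 (AT2G18300), a transcription factor that promotes cell elongation, had 8.79 and 8.54 in control and 8.32 and 8.22 in drought on day 1, and 8.28 and 8.52 against 4.32 and 4.04 at wilting. Drought arrays were below control arrays in both sets, narrowly on day 1. The difference was -3.83 ± 0.22 (95% interval -4.35 to -3.30; adjusted p = 0.00215) and was called without any 1 array. BEE2, a related factor induced by brassinosteroids, had a difference of -3.21 ± 0.33 (adjusted p = 0.00504), likewise called without any 1 array, and DWF1, an enzyme of brassinosteroid synthesis, had one of -1.49 ± 0.19 (adjusted p = 0.00913). These were the 3 called lower of 16 brassinosteroid and growth factors (18.8%, against 5.39% of all probe sets), with 0 called higher and a list median of -0.21. The count was 6 without progressive drought control replicate 1 and 2 without day 1 control replicate 2 or drought replicate 2, and the median went from -0.08 without wilting replicate 2 to -0.49 without wilting replicate 1.

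Several of the largest negative differences were in wall-remodelling genes. Of 21 XTH enzymes, 7 were called lower and 1 (XTH28, 0.71) higher, with a median difference of -0.46. The median was -1.52 over the 14 members left by the filter on dim probe sets. With 1 array left out it ranged from -0.72, without progressive drought control replicate 2, to -0.33. The XTH28 call, 4.76% of the list against 3.48% of all probe sets, was lost under the variance trend. XTH9 (AT4G03210) had 9.96 and 9.71 against 9.14 and 9.40 on day 1 and 10.20 and 9.52 against 5.71 and 5.92 at wilting, a difference of -3.49 ± 0.33 (adjusted p = 0.00404). XTH4 reached -2.89 ± 0.26 (adjusted p = 0.00339), and both calls held without any 1 array. XTH6 and XTH31 had differences of -3.92 ± 0.54 and -3.52 ± 0.58 (adjusted p = 0.0108 and 0.0172). XTH31 had a day 1 effect of 0.09, and its 2 day 1 drought arrays, at 7.47 and 8.20, lay on both sides of the controls at 7.73 and 7.75. The XTH count of 7 was 3, 2, 4 and 2 without day 1 control replicates 1 and 2 and drought replicates 1 and 2.

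The 15 expansins, which loosen walls during growth, had a median effect of 0.27 on day 1 and of -0.98 at wilting. EXPA8, EXPA6 and EXPB3 were called lower and 0 members higher, and the count was 10 without progressive drought control replicate 1 and 0 without any of the 4 day 1 arrays. EXPA8 (AT2G40610) had 7.34 and 7.56 against 7.80 and 8.02 on day 1 and 6.72 and 8.24 against 4.59 and 3.94 at wilting. Its day 1 drought arrays were above their controls and its wilting arrays below theirs, and the difference was -3.67 ± 0.67 (adjusted p = 0.0238). EXPA6 had effects of -0.01 and -3.02 (difference -3.01 ± 0.55, adjusted p = 0.0231).

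Fasciclin-like arabinogalactan proteins, which are anchored at the cell surface, had 5 of 11 members called lower and 0 higher, and 3 of these 5 calls held without any 1 array, the same number as were called without any 1 of the day 1 arrays. FLA2 (AT4G12730) had 8.50 and 8.53 against 7.86 and 7.98 on day 1 and 8.26 and 7.99 against 4.29 and 4.41 at wilting, so it was below control in both sets and the difference was -3.18 ± 0.17 (adjusted p = 0.00215). FLA13 and FLA9 followed at -2.76 ± 0.26 and -2.40 ± 0.24 (adjusted p = 0.00377 and 0.00489), FLA9 from a day 1 effect of -1.22. In the EXORDIUM family of extracellular proteins 3 of 6 were called lower, with EXL5 at -3.52 ± 0.56 (adjusted p = 0.0155) and EXO at -3.80 ± 0.85 (adjusted p = 0.0431). EXO had controls of 9.28 and 7.17 in the progressive drought set. Of 13 cellulose and pectin genes 4 were called lower, among them PME3, a pectin methylesterase, at -3.09 ± 0.57 (adjusted p = 0.0247). The EXORDIUM and the cellulose and pectin lists had 0 calls without day 1 control replicate 2 or day 1 drought replicate 2.

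GER1 (AT1G72610), a germin-like protein of the cell wall, had the most negative difference of all 21461 probe sets. It had 12.68 and 12.70 against 12.12 and 12.38 on day 1 and 12.16 and 12.41 against 7.78 and 6.56 at wilting. The difference was -4.68 ± 0.51 (adjusted p = 0.00585; highest adjusted p with 1 array left out, 0.053). Its relative GER3 had a difference of -4.25 ± 0.54 (adjusted p = 0.00869), from a day 1 effect of -0.09. GASA6, a GASA peptide linked to cell elongation, had one of -4.01 ± 0.69 (adjusted p = 0.0195), opposite in sign to that of GASA3. The list of 21 gibberellin genes and GASA peptides does not include GASA3. Of its members, 4.76% were called higher and 9.52% lower, against 3.48% and 5.39% of all probe sets. GASA6 and the DELLA repressor GAI (-0.98 ± 0.22, adjusted p = 0.0446) were called lower and GA2OX6, a gibberellin-inactivating oxidase, higher (2.07 ± 0.48, adjusted p = 0.0485). The GA2OX6 call was lost under cyclic loess normalization and under robust variances. None of the 3 was called without any 1 of the day 1 arrays. Of 20 Aux/IAA repressors of auxin signalling 3 were called lower, with IAA4 (symbol ATAUX2-11) at -1.38 ± 0.14 (adjusted p = 0.00511), called without any 1 array, and IAA27 (symbol PAP2 at AT4G29080) at -1.58 ± 0.19 (adjusted p = 0.00717). The Aux/IAA count was 1 without day 1 control replicate 2 or drought replicate 2, and 5 without wilting replicate 1.

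Cell cycle and DNA replication genes were called lower in 8 of 19 cases and higher in 0, with a median difference of -1.13 from effects of -0.15 on day 1 and -1.15 at wilting. PCNA1 (AT1G07370), the sliding clamp of DNA polymerase, had 7.43 and 7.36 against 7.31 and 7.28 on day 1 and 7.03 and 7.20 against 5.14 and 5.11 at wilting. The difference was -1.89 ± 0.14 (adjusted p = 0.00328), called without any 1 array. PRL, a subunit of the MCM helicase, had one of -1.98 ± 0.31 (adjusted p = 0.0146), MCM4 one of -1.19 ± 0.17 (adjusted p = 0.012), and the cyclin CYCD3;3 one of -1.24 ± 0.15 (adjusted p = 0.00783). The mitotic cyclin CYCB1;1 was not called, at 0.06. The list count was 1 or 2 without any 1 of the day 1 arrays. Cytosolic ribosomal proteins had 4 of 16 called lower, a median difference of -0.57 and all 16 differences negative, with RPL5B at -1.34 ± 0.25 (adjusted p = 0.0252). Their count was 0 without any of the 4 day 1 arrays and 1 without progressive drought control replicate 2.

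**Figure D3:**
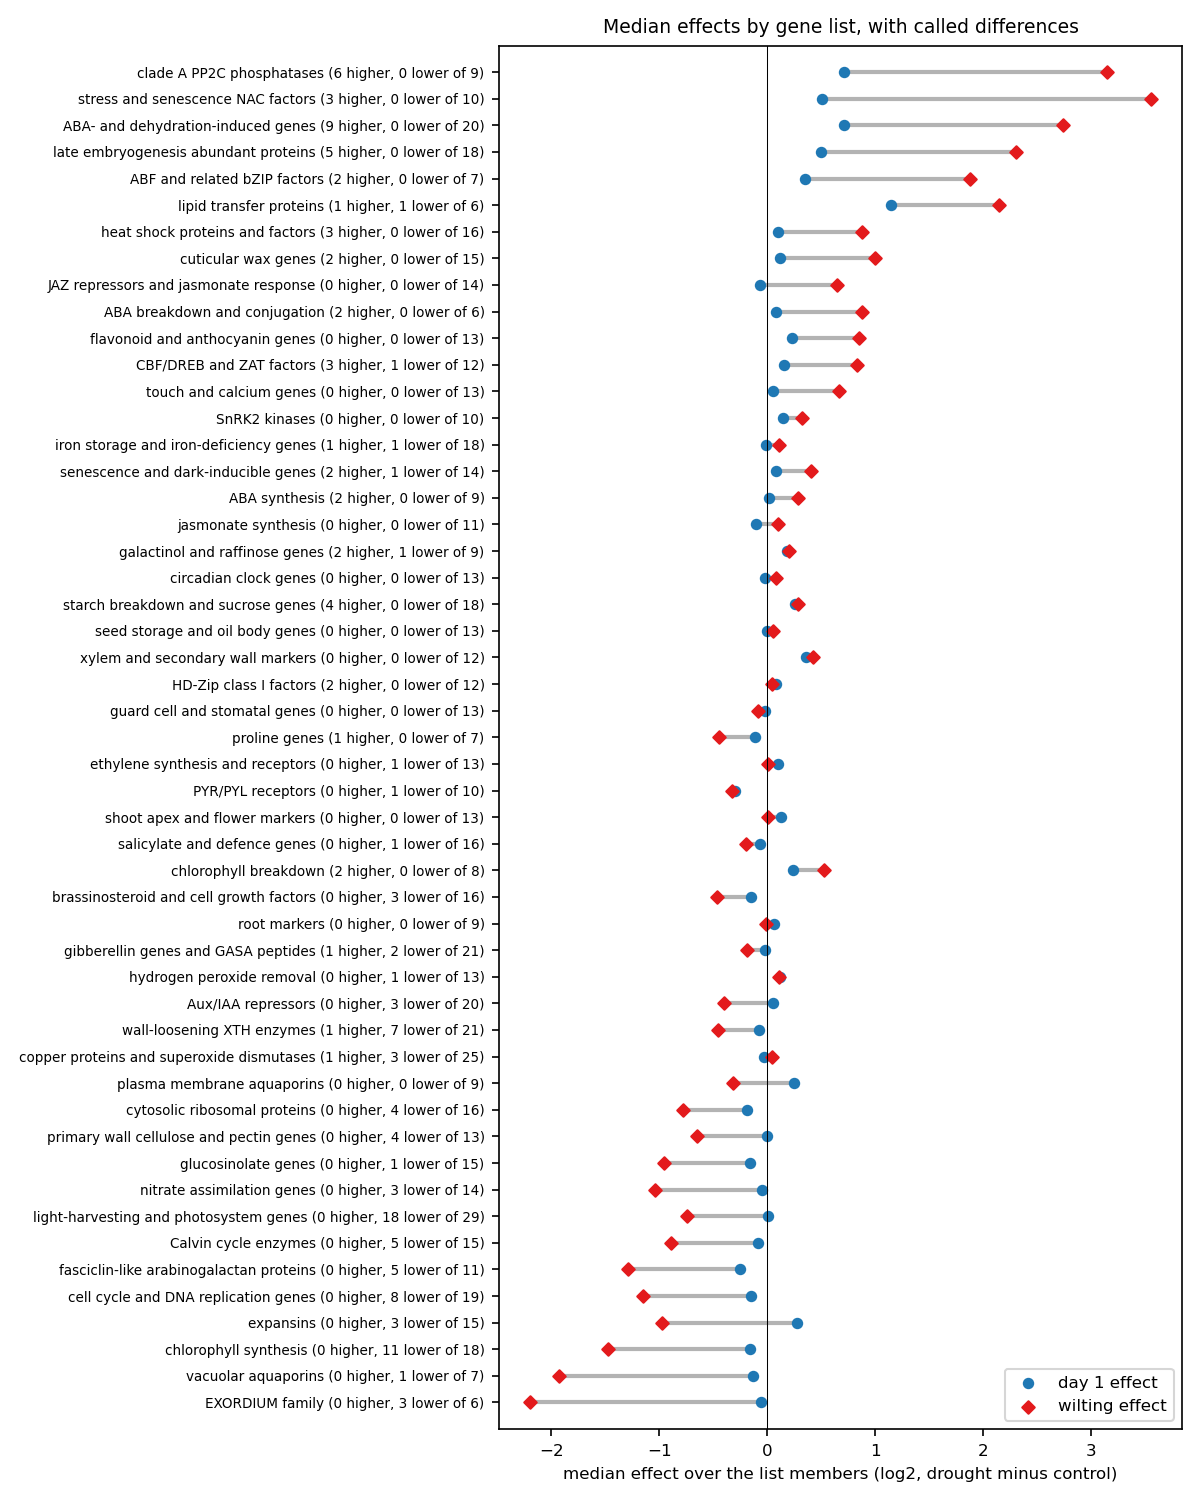
Median effect of each gene list on day 1 (blue circles) and at wilting (red diamonds), in log2 units of drought minus control, with the number of members called higher and lower in the label. Lists are ordered by their median difference; ABA, PP2C, NAC and LEA lists lie to the right at wilting, and chlorophyll synthesis, cell cycle, expansin and EXORDIUM lists to the left, while day 1 medians stay between -0.30 and 1.15.

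Of 18 chlorophyll synthesis genes, 11 were called lower and 0 higher, and all 18 differences were negative, with a median of -1.43. CHLI2 (AT5G45930), a subunit of the magnesium chelatase, had 8.66 and 8.56 against 7.94 and 8.09 on day 1 and 7.91 and 8.16 against 4.64 and 4.75 at wilting. Its difference was -2.74 ± 0.18 (adjusted p = 0.00262). GSA2 and HEMC, enzymes of the early tetrapyrrole steps, had differences of -2.76 ± 0.26 and -2.07 ± 0.19 (adjusted p = 0.00399 and 0.00348), and all 3 calls held without any 1 array. PORC, a light-dependent protochlorophyllide reductase, had one of -1.48 ± 0.18 (adjusted p = 0.0074). The list count was 6, 3 and 4 without day 1 control replicates 1 and 2 and drought replicate 2. On the breakdown side, ACD1 (PAO, AT3G44880), the oxygenase that opens the chlorophyll ring, had 8.81 and 8.85 against 9.15 and 9.14 on day 1 and 8.07 and 8.19 against 11.24 and 10.72 at wilting. The ACD1 difference was 2.53 ± 0.24 (adjusted p = 0.00411), called without any 1 array, and that of PPH, a pheophytinase, was 1.77 ± 0.37 (adjusted p = 0.0369). The other 6 of 8 breakdown genes were not called, and the list median was -0.17. The count was 1 without any 1 of the day 1 arrays.

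Light-harvesting and photosystem genes had 18 of 29 members called lower and 0 higher, all 29 differences negative and a median difference of -0.76, from 0.01 on day 1 and -0.74 at wilting. The size of this shift depended on the normalization: with the 8 arrays quantile-normalised together the median was -0.60 with 13 called, and with cyclic loess within each set it was -0.36 with 5 called. The count was 2, 0, 3 and 2 without day 1 control replicates 1 and 2 and drought replicates 1 and 2, and 10 without progressive drought control replicate 2. LHCB6, an antenna protein of photosystem II, had 13.11 and 13.07 against 12.93 and 13.00 on day 1 and 12.57 and 12.65 against 11.34 and 11.24 at wilting. The LHCB6 difference was -1.20 ± 0.13 (adjusted p = 0.00624). PSBQA, a subunit of the oxygen-evolving complex, had one of -1.83 ± 0.23 (adjusted p = 0.00838). The Calvin cycle list had 5 of 15 called lower and 0 higher, with CA1, a carbonic anhydrase, at -2.26 ± 0.28 (adjusted p = 0.00828). Its count was 1, 0, 2 and 0 without the 4 day 1 arrays in the same order and 9 without wilting replicate 1. The plastocyanin gene PETE1, a copper protein of photosynthetic electron transport, went from 11.51 and 11.37 to 11.30 and 11.25 on day 1 and from 10.87 and 10.81 to 8.96 and 8.73 at wilting. Its difference of -1.83 ± 0.16 (adjusted p = 0.00339) was called without any 1 array.

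Of 14 nitrate assimilation genes 3 were called lower (21.4%, against 5.39% of all probe sets) and 0 higher, with a median difference of -0.76. NIA1 and NIA2, the nitrate reductases, had differences of -2.73 ± 0.42 and -2.01 ± 0.29 (adjusted p = 0.014 and 0.0123). NIR1, the nitrite reductase, had one of -2.07 ± 0.46 (adjusted p = 0.0432), which was not called under either other normalization. None of the 14 was called without either day 1 control array or day 1 drought replicate 2, and 5 were called lower with array weights or without either wilting array. EFE (AT1G05010), an oxidase that makes ethylene, had 10.10 and 10.32 against 10.27 and 10.23 on day 1, with overlapping groups, and 9.03 and 8.87 against 6.30 and 6.53 at wilting. Its difference of -2.58 ± 0.18 (adjusted p = 0.00287) was called without any 1 array and was the 1 call among 13 ethylene genes.

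A small group of genes had effects in opposite directions. Of the 1903 called differences, 20 had effects of opposite sign that both reached 0.5: 6 called higher and 14 called lower. NEET (AT5G51720), an iron-sulfur protein, had 7.89 and 7.57 in control and 8.33 and 8.64 in drought on day 1, and 9.17 and 9.44 against 6.81 and 7.15 at wilting. Its effects were 0.76 ± 0.15 and -2.33 ± 0.18, each with the SE of its own 4 arrays, and the difference was -3.08 ± 0.27 (95% interval -3.73 to -2.43; adjusted p = 0.00339). XYL4 (AT5G64570), a beta-xylosidase of the cell wall, ran the other way, with 8.01 and 7.66 against 7.15 and 7.01 on day 1 and 7.04 and 6.86 against 8.19 and 8.39 at wilting. Its difference was 2.09 ± 0.22 (95% interval 1.57 to 2.61; adjusted p = 0.00504). In both genes control and drought arrays did not overlap in either set, and they were the 2 of the 20 that stayed called without any 1 array.

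The other genes named from this group were called in the fit of the 8 arrays but not in every fit with 1 array left out. EXPB3 (AT4G28250), an expansin, had 6.41 and 6.32 against 7.02 and 7.27 on day 1 and 6.52 and 7.36 against 5.32 and 5.47 at wilting, a difference of -2.33 ± 0.37 (adjusted p = 0.0153). AT3G43670, a locus without a symbol, had 6.17 and 5.44 against 7.12 and 7.29 on day 1 and 6.30 and 5.84 against 5.39 and 5.37 at wilting. Its groups did not overlap in either set, the difference was -2.09 ± 0.37 (adjusted p = 0.0202), and the day 1 effect was the larger in size. AT5G44400, also without a symbol, had a difference of -1.36 ± 0.24 (adjusted p = 0.0199), and PYK10 (AT3G09260), a beta-glucosidase of endoplasmic reticulum bodies, one of -1.83 ± 0.40 (adjusted p = 0.04). Of 2 genes singled out after their values were seen, ENH1 (AT5G17170), a rubredoxin-like chloroplast protein, had a difference of -2.46 ± 0.46 (adjusted p = 0.0248), and SQE6, a squalene monooxygenase, had one of -1.18 ± 0.26 (adjusted p = 0.04) and was not called with a variance trend (adjusted p = 0.051). In the other direction, the locus AT3G17770 had a difference of 2.7 ± 0.50 (adjusted p = 0.0251), with wilting arrays at 8.88 and 7.71, and ORG1 (AT5G53450) had a difference of 2.08 ± 0.41 (adjusted p = 0.0292). TEM1, a repressor of flowering, had one of 2.03 ± 0.46 (adjusted p = 0.0435), with progressive drought controls at 7.14 and 6.16. CGLD27, a conserved chloroplast protein, had one of 1.95 ± 0.40 (adjusted p = 0.0333).

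**Figure D4:**
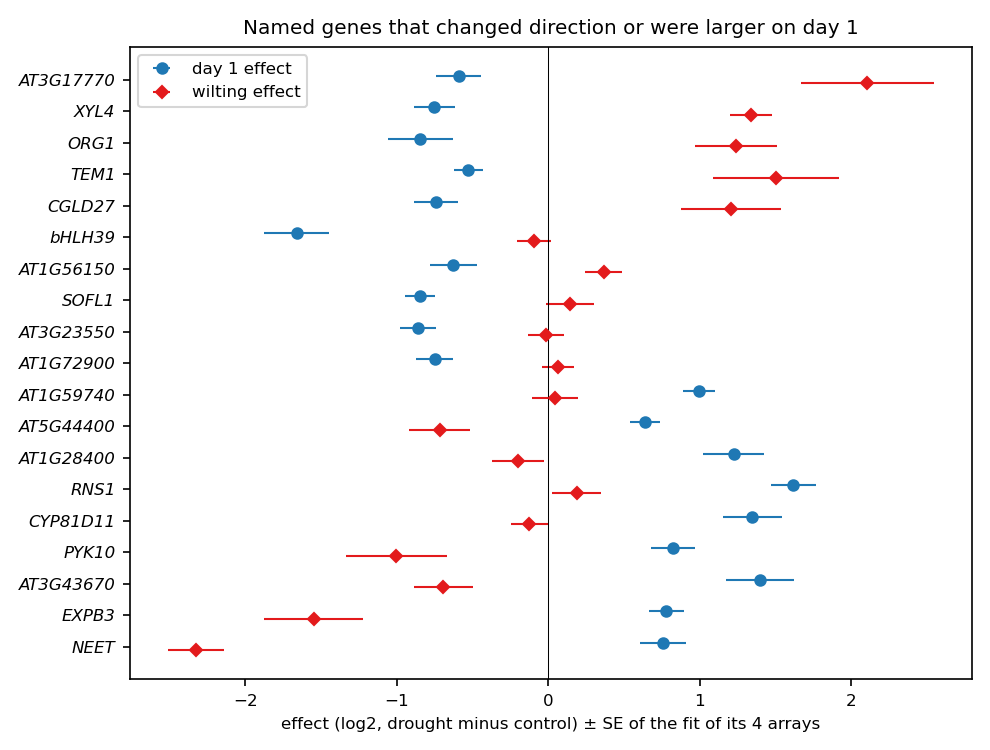
Day 1 effects (blue circles) and wilting effects (red diamonds) of the 19 genes named by rule for effects in opposite directions or with the larger effect on day 1, in log2 units of drought minus control, with bars of 1 SE from the fit of each set's own 4 arrays (2 control and 2 drought). AT3G17770, XYL4, ORG1, TEM1 and CGLD27 lie left of 0 on day 1 and right of it at wilting, and NEET, EXPB3, AT3G43670, PYK10 and AT5G44400 lie the other way round.

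For 23 called differences the day 1 effect was the larger in size, and 20 of these had a wilting effect smaller than 0.5. RNS1 (AT2G02990), a ribonuclease known to be induced by phosphate starvation, had 3.80 and 4.13 against 5.71 and 5.45 on day 1 and 3.52 and 3.70 against 3.95 and 3.64 at wilting. The wilting groups overlapped, the difference was -1.43 ± 0.25 (95% interval -2.03 to -0.83; adjusted p = 0.02), and with the 8 arrays quantile-normalised together it was -0.96 and not called (adjusted p = 0.106). CYP81D11 (AT3G28740), a cytochrome P450, had 5.51 and 5.00 against 6.79 and 6.42 on day 1 and 4.02 and 3.92 against 3.75 and 3.93 at wilting, a difference of -1.47 ± 0.29 (adjusted p = 0.0285). bHLH39 (AT3G56980), a transcription factor of the iron deficiency response, had 6.12 and 6.74 against 4.93 and 4.60 on day 1. In the progressive drought set it was at 3.33 and 3.37 in control and 3.18 and 3.33 in wilting leaves, below the set's median in both groups. The bHLH39 difference of 1.57 ± 0.31 (adjusted p = 0.0295) was not called with array weights (adjusted p = 0.0548). Among loci without a symbol in this group, AT1G28400 had effects of 1.22 on day 1 and -0.20 at wilting (difference -1.42 ± 0.32, adjusted p = 0.0435). AT1G59740, listed under the synonym NPF4.3, had effects of 0.99 and 0.04 (difference -0.95 ± 0.19, adjusted p = 0.0326). AT3G23550, AT1G72900 and AT1G56150 (synonym SAUR71) had day 1 effects of -0.86, -0.75 and -0.63 and differences of 0.84, 0.82 and 0.99. These 5 calls were each lost under at least 1 of array weights, a variance trend, common quantile normalization and all 12 arrays. SOFL1 had a difference of 0.99 ± 0.19 (adjusted p = 0.0291) from a day 1 effect of -0.85, and ABCI8, the SUFB subunit of plastid iron-sulfur assembly, singled out after its values were seen, one of -0.86 ± 0.17 (adjusted p = 0.0287) from a day 1 effect of 0.70. None of the 23 stayed called in all fits with 1 array left out.

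Several of the largest day 1 responses had no called difference, and their intervals show how large one could still be. PELPK1 (AT5G09530), a proline-rich cell wall protein, had 4.12 and 4.16 against 7.17 and 6.93 on day 1 and 3.76 and 3.70 against 7.47 and 5.52 at wilting. Its wilting arrays were far apart, and the difference of -0.15 ± 0.78 (95% interval -2.02 to 1.72; adjusted p = 0.942) was 0.38 under common quantile normalization. FER1 (AT5G01600), a ferritin that stores iron, had 6.99 and 6.91 against 9.86 and 9.44 on day 1 and 8.76 and 9.60 against 12.95 and 11.73 at wilting, a difference of 0.46 ± 0.62 (95% interval -1.02 to 1.94; adjusted p = 0.739). NATA1, an acetyltransferase that modifies ornithine, had one of 0.54 ± 0.82 (95% interval -1.43 to 2.52; adjusted p = 0.771). ERD5, the proline dehydrogenase, had one of -0.38 ± 0.67 (95% interval -1.98 to 1.22; adjusted p = 0.805), from effects of -1.55 and -1.93.

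The copper/zinc superoxide dismutases, which remove superoxide, had strongly negative effects in both sets. CSD2 (AT2G28190), the chloroplast enzyme, had 11.22 and 11.54 against 7.96 and 7.99 on day 1 and 11.40 and 12.25 against 6.55 and 6.15 at wilting. Its difference of -2.07 ± 0.41 (adjusted p = 0.0304) was called, but the adjusted p was as high as 0.13 with 1 array left out. CSD1, the cytosolic enzyme, had effects of -2.06 and -2.61 and a difference of -0.55 ± 0.47 (95% interval -1.68 to 0.58; adjusted p = 0.57). CCS, their copper chaperone, had effects of -2.07 and -2.82 and a difference of -0.75 ± 0.44 (95% interval -1.80 to 0.30; adjusted p = 0.381). The copper chaperone CCH had effects of 1.22 and 2.2 and was called higher (0.98 ± 0.20, adjusted p = 0.0358), a call lost under the variance trend. With 1 array left out the CCH difference ranged from 0.81 to 1.15. Of 25 copper proteins and superoxide dismutases, CCH was the 1 called higher, and CSD2 and the plastocyanins PETE1 and DRT112 (-1.32 ± 0.15, adjusted p = 0.00602) were the 3 called lower, with a list median of -0.46. The lower count was 1 without day 1 control replicate 2 and 5 without wilting replicate 2.

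Members of the lipid transfer protein family had differences in both directions. LTP4 (AT5G59310) had 4.47 and 4.84 against 9.28 and 9.04 on day 1 and 4.51 and 4.00 against 12.29 and 12.33 at wilting. The LTP4 difference of 3.55 ± 0.29 (95% interval 2.85 to 4.24; adjusted p = 0.00328) was called without any 1 array. LTP3, a close relative, had a difference of 2.39 ± 0.80 (adjusted p = 0.133), with progressive drought controls at 6.79 and 4.90. LTP6 (AT3G08770) had 8.27 and 8.23 against 8.74 and 8.59 on day 1 and 8.08 and 8.44 against 5.79 and 5.00 at wilting, a difference of -3.27 ± 0.37 (adjusted p = 0.00624). Array probes of near-identical family members such as LTP3 and LTP4 can share signal, so their separate values are uncertain.

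Of 16 heat shock proteins and factors 3 were called higher (18.8%, against 3.48% of all probe sets): HSP70 (4.56 ± 1.05, adjusted p = 0.0472), HSFA6A (3.85 ± 0.79, adjusted p = 0.0343) and HSFC1 (2.93 ± 0.53, adjusted p = 0.023). HSP70 had wilting arrays at 11.23 and 8.88, and the list count was 11 without wilting replicate 2, 1 without either progressive drought control and 0 without any of the 4 day 1 arrays. Among 15 cuticular wax genes 2 were called higher (13.3%), the elongases KCS2 and KCS6 (CUT1), at 2.4 ± 0.45 and 1.50 ± 0.32 (adjusted p = 0.0247 and 0.0375). The list count was 0 without any of the 4 day 1 arrays or without progressive drought control replicate 1, and 7 without wilting replicate 2. Of 14 senescence and dark-inducible genes SAG21, SAG29 and DIN10 above were the called ones. The hydrogen peroxide, iron, glucosinolate, salicylate, ethylene and senescence lists had shares called lower of 5.56% to 7.69%, near the 5.39% of all probe sets. For the Aux/IAA list 15.0% and for the vacuolar aquaporin list 14.3% were called lower. Shares called higher were 22.2% for starch and sucrose genes and 5.56% for iron genes, against 3.48% of all probe sets. Of 13 hydrogen peroxide removal genes 1 was called, the thylakoid ascorbate peroxidase TAPX at -1.03 ± 0.17 (adjusted p = 0.0172), which was not called without any 1 of the day 1 arrays or progressive drought control replicate 2. Of 18 iron genes bHLH39 was called higher and the ferritin FER3 lower, at -1.12 ± 0.15 (adjusted p = 0.00913), and FER3 was not called with all 12 arrays in the fit. Without wilting replicate 2 the iron list had 6 called higher. Of 15 glucosinolate genes 1 was called, the regulator MYB29 at -0.83 ± 0.20 (adjusted p = 0.0497), which was lost under common quantile normalization, a variance trend and robust variances, and in every fit with 1 array left out except those without a wilting array. Of 16 salicylate and defence genes 1 was called, PR5 at -1.26 ± 0.17 (adjusted p = 0.0096). Its call was lost with all 12 arrays in the fit (adjusted p = 0.0691). Of 9 plasma membrane aquaporins 0 were called (1 lower at an unadjusted p under 0.05) and of 7 vacuolar ones TIP2 was called lower (-2.62 ± 0.55, adjusted p = 0.0367), while each list had 4 called lower without wilting replicate 1.

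No difference was called among 14 JAZ repressors and jasmonate response genes, 11 jasmonate synthesis genes, 13 touch and calcium genes, 13 flavonoid and anthocyanin genes, 13 circadian clock genes, 13 guard cell and stomatal genes or 12 xylem and secondary wall markers. At an unadjusted p under 0.05 these lists had 0 to 3 members higher and 0 or 1 lower. Their median differences ranged from 0.00 for the guard cell genes to 0.77 for the JAZ list, and single arrays turned the sign of several. With 1 array left out, the median went from -0.70 to 2.27 for the JAZ list, from -0.85 to 1.31 for jasmonate synthesis and from -0.68 to 0.91 for the clock list, each lowest without progressive drought control replicate 2. Without progressive drought control replicate 1, the touch list had 4 and the JAZ and flavonoid lists 2 called higher each, and the flavonoid list had 3 without wilting replicate 1. The clock list had 3 called higher without wilting replicate 2, and its morning genes CCA1 and LHY, named after their values were seen, had differences of 2.54 and 1.75 in the fit of the 8 arrays without a call. The labels give no time of day for sampling, and its part in these values was not tested. The median level of the xylem markers was 4.68 in both day 1 control arrays against 5.25 in the drought arrays, and 4.14 to 4.32 against 4.42 to 4.91 in the progressive drought set. Only 1 of these 12 markers and 3 of the 13 guard cell genes passed the filter on dim probe sets. In these 2 lists an absent call does not show unchanged expression.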

How the data were processed

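Biotin-labelled RNA from young leaves was hybridised to Affymetrix ATH1 arrays. Deposited values were on a log2 scale, from RMA (affy) per the submitters' processing notes. The probe grouping and genome build, not given in the sources used here, put a locus code in each probe set name. Sorted values agreed within a set of 4 arrays (mean range 0.0501 on day 1, 0.0691 in progressive drought) and not over all arrays (0.696), so the sets appear to have been normalised separately, and only changes within a set were compared.

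After leaving out 56 control probe sets, limma 3.58.1 (R 4.3.3) was fitted to the 8 arrays with 1 mean per group, 2 arrays each and 4 residual degrees of freedom. The contrast was wilting effect minus day 1 effect, with moderated tests (eBayes) and Benjamini-Hochberg adjustment over 21461 probe sets, 72 of them antisense; precision is limited by having 2 arrays a group. Errors are SE of the fit with 95% intervals. Labels call the replicates biological. The script was tested on simulated data with independent noise and the same spread in every group. That test does not cover the wider replicate spread, or the correlated replicate differences, of the progressive drought set. Alternatives were all 12 arrays, array weights, quantile normalization of the 8 arrays together, cyclic loess within sets, only probe sets above the median mean level, a variance trend, robust variances, a replicate block and each array left out.

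Symbols come from RefSeq TAIR10.1 by locus (21164 of 21389 sense loci found, 8981 with a symbol). Genes were named by rule: the sentinel genes (LTI78, LTI65, RAB18, RD20, NCED3, COR15A, ERD5, CSD2, LTP4), the 10 largest calls in each direction that have a symbol and whose control and drought arrays do not overlap in the set of the larger effect, the 5 opposite calls in each direction whose smaller effect was largest, the 5 largest day 1 effects in each direction among calls larger on day 1, the 10 largest day 1 effects with a symbol and arrays apart, and at most 4 of the called genes per list by adjusted p. Other members named were picked from their list after their values were seen. The members, lists and rule were chosen with earlier results of these data known. Replicate numbers were not used as pairs: differences between replicates correlated at 0.03 on day 1 and -0.49 in progressive drought. In progressive drought, probe sets higher in control replicate 1 than replicate 2 thus tended to be lower in wilting replicate 1 than replicate 2. The main fit took the arrays as independent and did not model this structure, and its cause was not tested. Promoter sequences were not analysed here.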

Additional observations from a re-analysis of the deposited data

Results flagged for a closer look

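Every called difference in the report is a test that the drought effects of the 2 sets differ. The results listed here are the named genes whose effects also had opposite signs and both reached 0.5 on the log2 scale. In the negative direction these were NEET with a difference of -3.08, ENH1 with -2.46, EXPB3 with -2.33, AT3G43670 with -2.09, PYK10 with -1.83, AT5G44400 with -1.36 and SQE6 with -1.18, all above control on day 1 and below it at wilting. In the positive direction they were AT3G17770 with 2.7, XYL4 with 2.09, ORG1 with 2.08, TEM1 with 2.03 and CGLD27 with 1.95, all below control on day 1 and above it at wilting. At an adjusted p threshold of 0.05 in each fit (limma), NEET and XYL4 stayed called in all 8 fits with 1 array left out, and the other 10 did not. On day 10 of the moderate drought, which did not enter these tests, the effect was -0.47 for NEET, -0.51 for ENH1, 0.93 for EXPB3, -0.54 for XYL4 and 0.17 for TEM1, each from 2 arrays a group. EXPB3 thus kept the sign of its day 1 effect, XYL4 did too, and NEET, ENH1 and TEM1 had the sign of their wilting effect. These genes are examples given without a rule for their choice, and day 10 values of the other flagged genes are not listed here. None of the day 10 signs was tested.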

How the results depend on the processing

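The counts of differences called higher, called lower, opposite in direction and larger on day 1 were 747, 1156, 20 and 23. They were 1129, 1559, 29 and 38 with all 12 arrays in the fit, and 14 were larger on day 1 among probe sets above the median level. Array weights, common quantile normalization, cyclic loess, the variance trend and robust variances left these counts within 1.5 times, with 557 to 893 higher and 908 to 1278 lower. With the replicate number as a block all 4 counts were 0 in limma (4118 probe sets at an unadjusted p under 0.05); the numbers share no origin that the labels give. With the pairing crossed in the progressive drought set, an alternative chosen after seeing the data, the counts were 1084, 1492, 33 and 32. With 1 array left out, they ranged from 82 to 1721 higher, 137 to 1751 lower, 2 to 32 opposite and 0 to 33 larger on day 1, and the share of higher calls, 39.3% with all 8 arrays, went from 31.4% without day 1 control replicate 1 to 49.6% without wilting replicate 2. List medians changed sign, or moved by more than the median SE of their members, in 12 lists under the filter on dim probe sets, in 2 under common quantile normalization, in 1 under cyclic loess and in 2 to 19 with 1 array left out, most without wilting replicate 2. Among the named genes, 4 differences changed sign under some setting, none of them called in the fit of 8 arrays, and the cause was not tested. PELPK1 was at 0.38 under common quantile normalization and ranged from -1.12 to 0.82 with 1 array left out. The same range was -0.87 to 0.10 for ERD5 (0.08 without day 1 control replicate 2 or wilting replicate 2), -0.16 to 1.07 for FER1 and -0.35 to 1.44 for NATA1. Under the variance trend 12 named calls were lost, under common quantile normalization 6, under array weights 5, under cyclic loess or all 12 arrays 4, and under robust variances 2. Deposited values carry no detection call, which limits genes near the low end of a set.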

Other observations

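The day 10 arrays of the moderate drought, in a set of their own with 2 arrays a group, give the same genes another drought effect, listed here as values with no test. RAB18 had day 10 values that differed by -0.10 between drought and control, LEA4-5 by -0.22, LEA7 by -0.35 and LTI65 by 0.10, against wilting effects of 7.41 or more. HAI2 was at 1.70, HB-7 at 1.24 and ORE1 (symbol NAC6) at 2.34 on day 10. Among the growth genes, FLA13 was at -1.98, FLA2 at -1.13 and XTH4 at -1.02, while HBI1 was at -0.06 and EXPA8 at 1.32. CSD2 was at -1.22 and PELPK1 at 1.73.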
